A study of Mus musculus with 6 samples.

Results

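The mitochondrial ribosomal protein genes, those with a symbol of Mrpl or Mrps and a number, were followed in ventricles of mice whose cardiomyocytes overexpressed COUP-TFII. Members were genes with at least 1 probe set annotated to exactly 1 such symbol, which gave 76 genes of the 18193 measured, 47 with an Mrpl symbol (large subunit) and 29 with an Mrps symbol (small subunit). RefSeq lists 78 such mouse genes, and Mrpl30 and Mrpl53 were not measured because their probe sets each name several genes. The 3 OE mice carried Myh6-MCM and CAG-S-COUP-TFII, and the 3 CTRL mice carried Myh6-MCM alone. All were of a mixed 129SvEv/C57Bl6/J background, and tamoxifen was given to every animal at 40 mg per kg per day for 3 days from 2 months of age. Ventricles were taken 16 days after the first dose, at a labelled age of 2.5 months (the array methods give 2 months), and each mouse was run on 1 Affymetrix mouse array. Myh6-MCM is a Cre recombinase that is made in cardiomyocytes and activated by tamoxifen. It switches on COUP-TFII from the CAG-S-COUP-TFII allele in those cells, whereas the RNA came from whole ventricles with all their cell types.

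Mitochondria carry their own ribosome, the mitoribosome, which translates the few proteins encoded by mitochondrial DNA, all of them subunits of the oxidative phosphorylation complexes. Its RNAs are transcribed from mitochondrial DNA, but its proteins are encoded in the nucleus, translated in the cytosol and imported. Some of these proteins have a bacterial counterpart and others exist in mitochondrial ribosomes alone. In human patients, variants of MRPL3, MRPL44 and MRPS22 have been linked to cardiomyopathy.

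The deposited values were log2 values, with each probe set at a median of 0 over the 6 arrays, so they compare arrays and hold no level of expression. Because a median of 6 lies midway between the 2 central arrays, those arrays often carry the same number with opposite sign. Replicates lay closer to each other (root mean square distance 0.195 to 0.233) than to the other group (0.375 to 0.427). Nr2f2, which encodes COUP-TFII, has 6 probe sets. A single one of them rose. It read 1.72, 1.60 and 1.91 in OE, against −1.99, −1.60 and −1.65 in CTRL, a log2 change of 3.49 (SE 0.13, adjusted p = 2.574e-05). The other 5 probe sets of Nr2f2 ranged from −0.34 to −0.13 and none passed the test. Unless another test is named, adjusted p-values are from two-sided limma tests, adjusted by Benjamini-Hochberg across all 18193 genes (across 34945 probe sets where single probe sets are given). These tests weigh the difference between the groups against the spread between these animals, with each variance moderated across all genes or probe sets tested. A gene is said to have risen or fallen where the adjusted p was under 0.05.

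Mitochondrial ribosomal protein genes that passed the test in OE ventricles went in both directions, and most of the 76 did not pass. Of the 76 genes, 13 fell (17.1%, against 11.8% of all genes), 6 rose (7.9%, against 14.9% of all genes) and 57 did not pass. Together 19 passed, where 26.7% of all genes did. The median log2 change of the 76 genes was −0.02, beside −0.03 over all genes, and single members lay between −0.84 and 0.61. Of the 76 genes, 55 changed by less than 1.2-fold, as did 12514 of all 18193 genes, and none changed by more than 2-fold, as 432 of all genes did. All 3 OE arrays lay below all 3 CTRL arrays in 18 members (23.6% of all genes did so) and above them in 16 (22.0% of all genes), where 45.6% of all genes had groups that did not overlap in either direction.

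**Figure D1:**
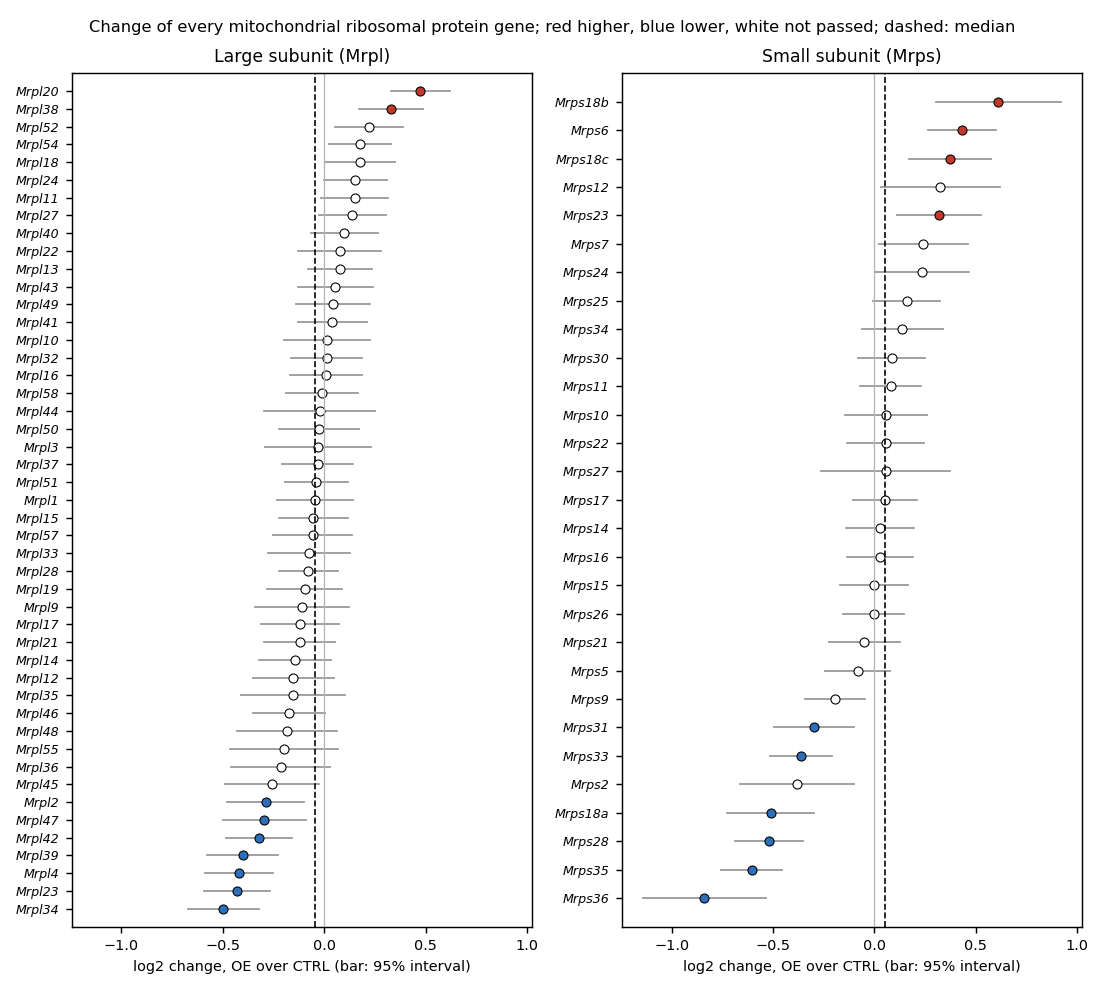
Log2 change of each of the 76 mitochondrial ribosomal protein genes, OE over CTRL, with 95% intervals (n = 3 arrays each), large subunit on the left and small subunit on the right. Red circles rose (6 genes), blue circles fell (13 genes), white circles did not pass the test, and the dashed lines are the medians, −0.04 for the large and 0.05 for the small subunit.

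Among the small subunit genes the largest fall was that of Mrps36. This gene carries a ribosomal symbol, but its product is known as a subunit of the 2-oxoglutarate dehydrogenase complex of the citric acid cycle and is absent from mitoribosome structures. Mrps36 read −0.44, −0.20 and −0.40 in OE, against 0.20, 0.64 and 0.63 in CTRL. The log2 change was −0.84 (SE 0.13, adjusted p = 0.003746), a 1.79-fold lower value. CTRL replicate 1 was the lowest CTRL array and still lay above every OE array.

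Mrps35 encodes a small subunit protein that bacteria lack. It read −0.27, −0.27 and −0.34 in OE, against 0.37, 0.31 and 0.27 in CTRL, and had the smallest adjusted p of the 76 genes (log2 change −0.61, SE 0.066, adjusted p = 0.000902). Mrps28 read −0.33, −0.19 and −0.32 in OE, against 0.31, 0.19 and 0.21 in CTRL (log2 change −0.52, adjusted p = 0.002283). For both genes the arrays of a group lay close together, and the gap between the groups was wider than the range within either. Mrps33, another protein without a bacterial counterpart, fell by 0.36 with OE values of −0.25 to −0.13 and CTRL values of 0.13 to 0.18. Mrps31 fell by 0.30 with OE values of −0.23 to −0.05 and CTRL values of 0.06 to 0.29, and its adjusted p of 0.03768 was nearer the threshold (up to 0.106 with an array left out, OE replicate 3).

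Of the small subunit genes that rose, Mrps6 encodes the counterpart of bacterial protein S6. It read 0.26, 0.28 and 0.14 in OE, against −0.13, −0.25 and −0.23 in CTRL (log2 change 0.43, SE 0.073, adjusted p = 0.005135). Mrps23 encodes a protein found in mitoribosomes alone. It read 0.11, 0.18 and 0.07 in OE, against −0.12, −0.37 and −0.11 in CTRL (log2 change 0.32, adjusted p = 0.03358, and up to 0.0953 with an array left out, OE replicate 2). The groups did not overlap for either gene, but in Mrps23 CTRL replicate 2 stood well below the other CTRL arrays. Mrps12, whose bacterial counterpart works at the decoding centre, had a change of similar size (0.32) that did not pass (adjusted p = 0.0957), with OE values of 0.51, 0.29 and −0.01 against CTRL values of −0.10, 0.01 and −0.08.

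Mammals have 3 homologues of the bacterial protein S18, and all 3 passed the test, in different directions. Mrps18a, which structures place in the large subunit despite its symbol, read −0.12, −0.25 and −0.32 in OE, against 0.35, 0.12 and 0.37 in CTRL (log2 change −0.51, SE 0.093, adjusted p = 0.006878). Mrps18b read 0.19, 0.36 and 0.22 in OE, against −0.21, −0.67 and −0.19 in CTRL (log2 change 0.61, SE 0.13, adjusted p = 0.01374), the largest rise of the 76 genes. Mrps18c read 0.20, 0.09 and 0.19 in OE, against −0.09, −0.37 and −0.19 in CTRL (log2 change 0.37, SE 0.088, adjusted p = 0.01843). Mrps18a was thus lower in every OE array, and Mrps18b and Mrps18c were higher in every OE array, with CTRL replicate 2 the lowest array for both. Each of the 3 genes was measured by 1 probe set. Under one-way analysis of variance Mrps18b (adjusted p = 0.0862) and Mrps18c (0.0700) did not pass, and Mrps18c did not pass without OE replicate 1 (0.0637) or OE replicate 3 (0.0563) in limma. Mrps18a (chr17:46111004-46128908) and Mrps18b (chr17:35910380-35916440) lie on the same chromosome and Mrps18c at chr5:100798759-100804467 (RefSeq genes, GRCm38.p6).

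**Figure D2:**
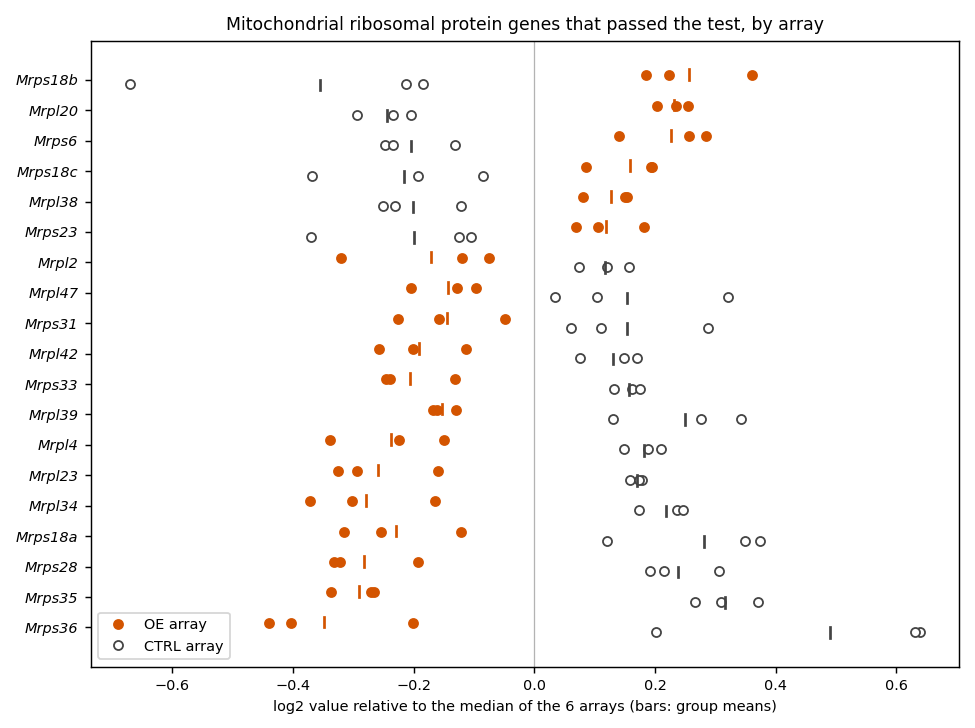
Values of the 19 mitochondrial ribosomal protein genes that passed the test in each OE array (filled) and each CTRL array (open), as log2 relative to the median of the 6 arrays, with short bars at the group means (n = 3 each). The 6 genes at the top rose and the 13 below fell. In all 19 the OE and CTRL arrays did not overlap, which their choice by a test on the same arrays favours (45.6% of all genes had such groups).

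Stretches of 100 bases upstream of the 3 genes are shown because their changes diverged and because each holds a short motif described with the other promoters further on. They are from the RefSeq promoter table (GRCm38.p6) and are written 5′ to 3′ on the strand of the gene. The Mrps18a stretch is chr17:46110904-46111003 (plus strand, directly before the start), that of Mrps18b is chr17:35916591-35916690 (minus strand, the far end of the promoter window) and that of Mrps18c is chr5:100798559-100798658 (plus strand, upstream of the last 100 bases before the start). Capitals mark the ETS motif in Mrps18a and, on the opposite strand, in Mrps18c, and the NRF1 core in Mrps18b, where matches on both strands overlap. After the start, outside these stretches, Mrps18b also held an ETS match and a further NRF1 core, and Mrps18a a YY1 match. All 3 genes thus had an ETS match in the promoter window.
Mrps18a: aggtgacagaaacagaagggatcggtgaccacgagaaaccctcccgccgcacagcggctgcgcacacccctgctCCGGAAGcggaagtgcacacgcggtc
Mrps18b: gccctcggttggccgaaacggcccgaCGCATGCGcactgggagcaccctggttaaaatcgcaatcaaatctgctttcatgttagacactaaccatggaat
Mrps18c: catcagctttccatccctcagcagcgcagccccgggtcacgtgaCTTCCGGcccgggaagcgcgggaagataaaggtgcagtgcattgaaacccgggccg

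Of 47 large subunit genes, 7 fell (14.9%, against 11.8% of all genes) and 2 rose (4.3%, against 14.9% of all genes). The share that fell was near that of all genes. Without OE replicate 1, 4 fell, and the share of all genes that fell was then 6.83%. With the probe set of largest variance for each gene, 9 fell and 5 rose, where 13.2% of all genes fell and 18.4% rose. Mrpl34, a small protein with a bacterial counterpart, read −0.16, −0.37 and −0.30 in OE, against 0.24, 0.17 and 0.25 in CTRL (log2 change −0.50, SE 0.076, adjusted p = 0.003387). Mrpl23, whose bacterial counterpart sits at the exit of the tunnel through which the new peptide leaves, read −0.32, −0.29 and −0.16 in OE, against 0.16, 0.18 and 0.17 in CTRL (log2 change −0.43, adjusted p = 0.004562). Mrpl4, whose bacterial counterpart lines that tunnel, read −0.22, −0.15 and −0.34 in OE, against 0.21, 0.15 and 0.19 in CTRL (log2 change −0.42, adjusted p = 0.005793). The CTRL arrays of these 3 genes were tight and the OE arrays more spread, without overlap.

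Mrpl39, a protein without a bacterial counterpart, read −0.16, −0.13 and −0.17 in OE, against 0.28, 0.34 and 0.13 in CTRL (log2 change −0.40, SE 0.075, adjusted p = 0.007765). Mrpl42, also restricted to mitoribosomes, fell by 0.32 (adjusted p = 0.01367, and 0.0521 without OE replicate 1). Mrpl47 fell by 0.30 (adjusted p = 0.04338), and Mrpl2, whose bacterial counterpart lies near the peptidyl transferase centre, by 0.29 (adjusted p = 0.03623). With single arrays left out, the adjusted p went as high as 0.116 for Mrpl47 (without OE replicate 3) and 0.0889 for Mrpl2 (without CTRL replicate 1). Mrpl45, known to hold the mitoribosome at the inner membrane, had a change of −0.26 that did not pass (adjusted p = 0.0940), and OE replicate 2 (0.0048) lay above CTRL replicate 3 (−0.0048).

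Mrpl20 rose. Its bacterial counterpart is needed early in assembly of the large subunit. It read 0.25, 0.23 and 0.20 in OE, against −0.23, −0.20 and −0.29 in CTRL, a log2 change of 0.48 (SE 0.063, adjusted p = 0.001941) or 1.39-fold. Mrpl38, a protein of the central protuberance, was the other large subunit gene to rise (log2 change 0.33, adjusted p = 0.01175), but its probe sets differed widely, as described below.

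The 3 genes named above as linked to human cardiomyopathy had changes near 0, although the probe sets of Mrpl3 differed widely, as described below. Mrpl3 had a log2 change of −0.03 (95% interval −0.29 to 0.23, adjusted p = 0.866) and Mrpl44 one of −0.02 (interval −0.30 to 0.25, adjusted p = 0.904). Mrps22 had a log2 change of 0.06 (interval −0.13 to 0.25, adjusted p = 0.642). For all 3 the OE and CTRL arrays overlapped, and changes of up to about 0.3 in size lie inside the intervals of Mrpl3 and Mrpl44. Genes just outside the threshold were Mrps2 (−0.38, adjusted p = 0.0513), Mrpl52 (0.22, adjusted p = 0.0553) and Mrps9 (−0.20, adjusted p = 0.0559). All 3 had groups that did not overlap, as did 45.6% of all genes.

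Set side by side, 19.1% of large subunit genes and 34.5% of small subunit genes passed the test, on either side of the 26.7% of all genes, with medians of −0.04 and 0.05. The difference of the medians (large minus small) was −0.096, which is a description without a test. Within each array, the mean of the large subunit genes minus that of the small subunit genes was −0.027, −0.032 and −0.031 in OE, against 0.023, 0.010 and −0.0046 in CTRL. With medians in place of means, the differences were −0.049, −0.036 and −0.073 in OE, against 0.085, −0.0025 and 0.0095 in CTRL. These values are small and use the subunits by symbol. By either measure the 3 OE arrays lay below the 3 CTRL arrays, as was so for 23.6% of all single genes. With medians, CTRL replicate 1 stood well above the other CTRL arrays. By symbol the small subunit had 4 genes that rose (13.8%, against 14.9% of all genes) and 6 that fell (20.7%, against 11.8%). Assigned by structure instead, with Mrps18a and Mrps30 in the large subunit, Mrps36 left out and Dap3, Ptcd3, Chchd1 and Gadd45gip1 (mitoribosomal proteins under other symbols) added, the large subunit had 2 genes that rose (4.0%) and 8 that fell (16.0%) of 50, and the small subunit had 4 that rose (13.8%) and 4 that fell (13.8%) of 29. Genes with a bacterial counterpart had 4 that rose (8.5%) and 7 that fell (14.9%) of 47 (median −0.04), and genes of mitoribosomes alone had 2 that rose (6.2%) and 5 that fell (15.6%) of 32 (median −0.02). All these shares stand beside 11.8% of all genes that fell and 14.9% that rose.

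The counts varied with the arrays used and with the scaling, as did those of all genes. Without OE replicate 1, 4 large subunit genes fell and 2 small subunit genes rose, where all arrays gave 7 and 4. Without that array 6.83% of all genes fell and 10.1% rose, where all arrays gave 11.8% and 14.9%. With each array centred on the cytosolic ribosomal protein genes, 41 of the 76 genes fell and 2 rose, but 50.5% of all genes then fell as well and the median over all genes moved to −0.25, beside −0.24 for the 76. Under each of 13 other fits, 10 of the 19 genes kept their call: Mrpl20 among those that rose, and Mrpl4, Mrpl23, Mrpl34, Mrpl39, Mrps18a, Mrps28, Mrps33, Mrps35 and Mrps36 among those that fell.

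Of the 76 genes, 34 were measured by 1 probe set and 42 by several, at most 8 (Mrpl15). Of all 156 probe sets, 12 rose and 19 fell, a share below the 24.4% of all probe sets that passed. No gene had probe sets that passed in opposite directions, but in 29 of the 42 genes the changes of the probe sets lay on both sides of 0. Mrpl38 was the widest. One of its probe sets read 0.60, 0.41 and 0.43 in OE, against −0.84, −0.60 and −0.41 in CTRL (log2 change 1.10, adjusted p = 0.00084), while the other 2 changed by −0.14 and 0.03 and did not pass. The rise of Mrpl38 as a gene therefore rested on 1 probe set of 3. Likewise, the fall of Mrpl34 came mainly from a probe set with a log2 change of −0.82, beside one of −0.17 that did not pass. For Mrpl47, 2 of 3 probe sets fell (−0.56 and −0.39) and the other changed by 0.07. Only 1 of 2 probe sets of Mrpl42 fell and 1 of 3 of Mrps23 rose. Neither probe set of Mrps31 (−0.33 and −0.27) passed by itself.

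Mrpl48 and Mrpl52 were among several genes that did not pass although single probe sets did. Others were Mrpl54, with probe sets at 0.53 (adjusted p = 0.003005) and −0.17, and Mrpl51. The probe sets of Mrpl51 changed by −0.37 (adjusted p = 0.0155), 0.12 and 0.14. For Mrpl48, a protein of the central protuberance, the probe sets changed by −0.72 (adjusted p = 0.0087), −0.08 and 0.26. For Mrpl52 a pair of probe sets changed by 0.54 and 0.55, both of which passed, and another pair by −0.10 each. Mrpl3 had 4 probe sets between −0.33, which passed (adjusted p = 0.0453), and 0.43, which did not. In contrast, both probe sets of Mrps6 rose (0.42 and 0.45) and both of Mrpl39 fell (−0.47 and −0.33). Of the 19 genes that passed, 11 had a single probe set and so could not be compared in this way.

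**Figure D3:**
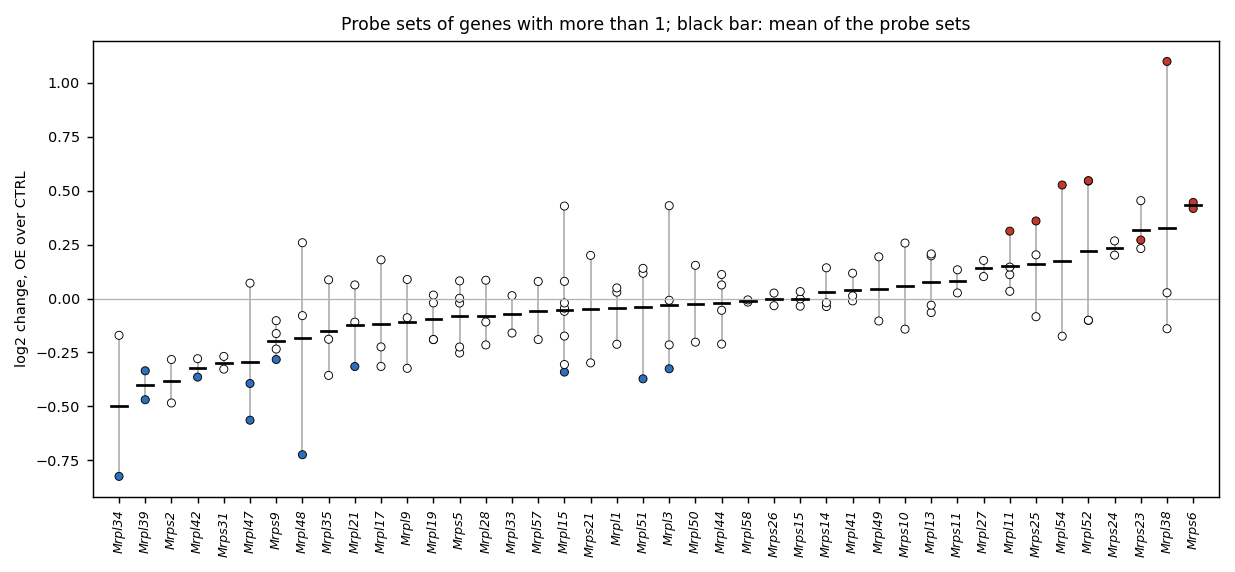
Log2 change, OE over CTRL, of each probe set of the 42 genes with more than 1, ordered by the mean of the probe sets (black bar). Red circles rose, blue circles fell and white circles did not pass at the level of single probe sets. Mrpl38 (−0.14, 0.03 and 1.10) is the widest and Mrps6 (0.42 and 0.45) is among the tight ones.

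Promoters of genes for mitochondrial proteins are known to carry sites for NRF1 and for factors of the ETS family such as NRF2 (GABP), and YY1 sites are frequent in them, while COUP-TFII binds repeats of the hexamer AGGTCA that many nuclear receptors share. RefSeq promoters, from 250 bases before to 50 after the start, were at hand for 67 of the 76 genes, and letters were searched on both strands. The ETS motif (CCGGAAG) was present in 24 of the 67 (35.8%), against 11.9% of 17492 protein-coding genes and 13.8% of the measured ones. The YY1 motif (AAGATGG) was present in 13 (19.4%, against 6.37%) and the NRF1 core (GCATGCG) in 8 (11.9%, against 4.49%). Any of the 3 occurred in 36 genes (53.7%), against 23.3% of measured genes. Of the 28 ETS matches, 16 lay in the 100 bases before the start, and 9 of 15 YY1 matches lay after it.

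Other motifs were about as frequent as elsewhere. CCAAT was present in 26 of the 67 promoters (38.8%, against 39.0% of all genes) and the hexamer AGGTCA in 10 (14.9%, against 14.5%). The estrogen-related receptor motif (TCAAGGTC, which does not hold the whole hexamer) was found in Mrpl17 alone, 1.49% against 0.966% of all genes. A direct repeat of the hexamer with 1 base between was in none of the 67 and in 0.0515% of all genes. Median GC content was 58.3%, beside 58.7% for measured genes. These are matches of letters, and no binding was measured here.

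Split by the direction of change, the counts of promoters were small and were not tested. Of 10 promoters of genes that fell, 3 held the ETS motif, 2 the YY1 motif and 1 the NRF1 core. Of 5 promoters of genes that rose, 3 held the ETS motif, 1 the NRF1 core and none the YY1 motif, and of 52 promoters of genes that did not pass, 18 held the ETS motif. The hexamer AGGTCA was in 1 promoter of a gene that fell (Mrpl47), in none of a gene that rose and in 9 of the others. Stretches of 100 bases of 3 genes that fell show an example of each: Mrpl34 with the ETS motif (chr8:71464826-71464925, plus strand), Mrpl39 with the NRF1 core on both strands (chr16:84735325-84735424, minus strand) and Mrpl47 with the hexamer on the opposite strand (chr3:32736756-32736855, minus strand), with the motif in capitals.
Mrpl34: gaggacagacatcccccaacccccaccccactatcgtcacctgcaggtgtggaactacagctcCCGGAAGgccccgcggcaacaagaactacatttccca
Mrpl39: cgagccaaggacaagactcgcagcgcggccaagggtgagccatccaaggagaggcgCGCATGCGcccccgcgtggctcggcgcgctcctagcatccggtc
Mrpl47: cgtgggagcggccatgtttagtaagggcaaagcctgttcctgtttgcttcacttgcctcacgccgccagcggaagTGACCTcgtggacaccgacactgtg

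Many of the genes start back to back with a neighbour. A gene on the opposite strand started within 500 bases upstream in 20 of the 67 (29.9%), against 7.53% of protein-coding genes. Mrpl46 and Mrps11 are each other's neighbour, with starts 42 bases apart, and the bases between them (chr7:78783090-78783130, written on the strand of Mrps11) are shown because they are all that separates a large from a small subunit gene.
Mrps11 to Mrpl46: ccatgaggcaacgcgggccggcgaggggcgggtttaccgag
Mrpl46 had a log2 change of −0.17 (adjusted p = 0.129) and Mrps11 one of 0.08 (adjusted p = 0.395). Of the 18 neighbours that are not mitoribosomal genes, 5 fell and 1 rose, where 11.8% of all genes fell and 14.9% rose. Tmem63b, Cyb5rl and Zfp661 fell beside Mrpl14, Mrpl37 and Mrps5, which did not pass. Mrpl2 and Mrps18c passed, but their neighbours Klc4 and Helq did not. Mrpl47 (−0.30) and its neighbour Ndufb5, a complex I subunit (−0.32, adjusted p = 0.01172), both fell, and their starts are 308 bases apart. Mrpl43 (0.05) did not pass while its neighbour Twnk, the helicase of mitochondrial DNA, fell by 0.37 (adjusted p = 0.0148). Mrpl32 (0.01) did not pass while its neighbour Psma2, a proteasome subunit, rose by 0.36 (adjusted p = 0.0159).

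**Figure D4:**
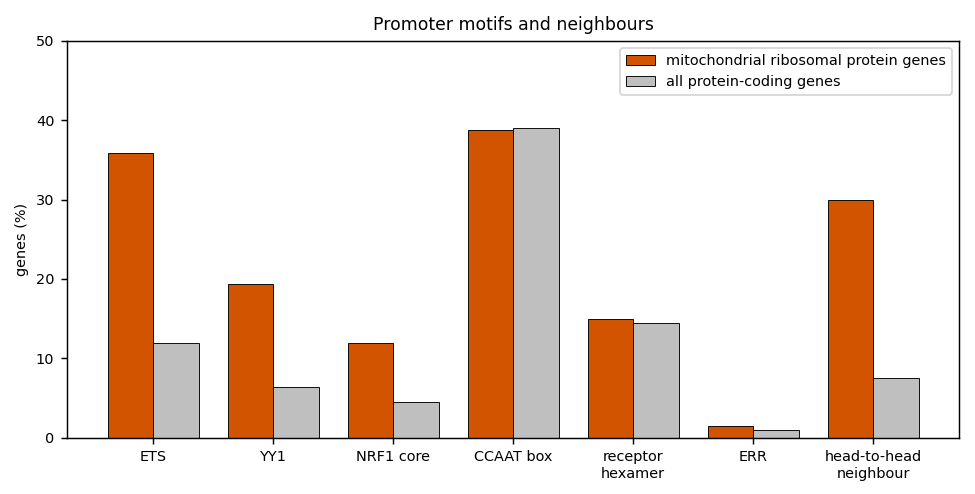
Share of genes (%) whose promoter holds each motif, and share with a back-to-back neighbour within 500 bases, for the 67 mitochondrial ribosomal protein genes with a RefSeq promoter (left bars) and for 17492 protein-coding genes (right bars). The ETS motif stands at 35.8% against 11.9% and the AGGTCA hexamer at 14.9% against 14.5%.

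Genes that act with the mitoribosome also included some that fell and some that rose. Of 22 mitochondrial translation factors, 5 fell and 2 rose (22.7% and 9.1%, against 11.8% and 14.9% of all genes, median −0.08). Lrpprc, which stabilises mitochondrial mRNAs together with Slirp, read −0.53, −0.42 and −0.47 in OE, against 0.42, 0.57 and 0.42 in CTRL (log2 change −0.94, SE 0.074, adjusted p = 0.000293), a larger fall than that of any of the 76 ribosomal genes. Slirp itself read 0.26, 0.18 and 0.23 in OE, against −0.18, −0.26 and −0.42 in CTRL (log2 change 0.51, adjusted p = 0.004121). These partners therefore changed in opposite directions between the groups. The release factor gene Mtrf1l fell by 0.55 (adjusted p = 0.0102) and the elongation factor gene Gfm1 by 0.52 (adjusted p = 0.0016), while the elongation factor genes Tufm (−0.14) and Tsfm (−0.16) did not pass.

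Of 33 factors for mitoribosome assembly and rRNA modification, 7 fell and 2 rose (21.2% and 6.1%, against 11.8% and 14.9% of all genes, median 0.00). Those that fell included the rRNA methyltransferase gene Mrm1 (−0.64, adjusted p = 0.0485) and the GTPase gene Noa1 (−0.41, adjusted p = 0.0297). Of 16 mitochondrial aminoacyl-tRNA synthetases, Hars2 (−0.33) and Aars2 (−0.30) fell and none rose (median −0.03). The 12.5% that fell was near the share of all genes. Of 14 genes for mitochondrial DNA transcription and replication, 5 fell and 1 rose (35.7% and 7.1%, median −0.20). Polrmt, the mitochondrial RNA polymerase, was at −0.53 (adjusted p = 0.00514) and Tefm, a transcription elongation factor, at 0.41 (adjusted p = 0.0334). The 4 mitoribosomal proteins under other symbols did not pass (median −0.13).

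The mitoribosome's products enter complexes I, III, IV and V. Of 69 nuclear genes of these complexes, 20 fell and 1 rose (29.0% and 1.4%, against 11.8% and 14.9% of all genes, median −0.12), with Cox8b at −0.83 and Ndufa8 at −0.73. All 4 genes of complex II, which has no mitochondrially encoded subunit, fell (median −0.45), with Sdha at −0.71. Cytosolic ribosomal protein genes went the other way. Of 79 listed, only 44 were measured, of which 16 rose and 1 fell (36.4% and 2.3%, median 0.20). The mitochondrial ribosomal protein genes, at a median of −0.02, lay between these lists.

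**Figure D5:**
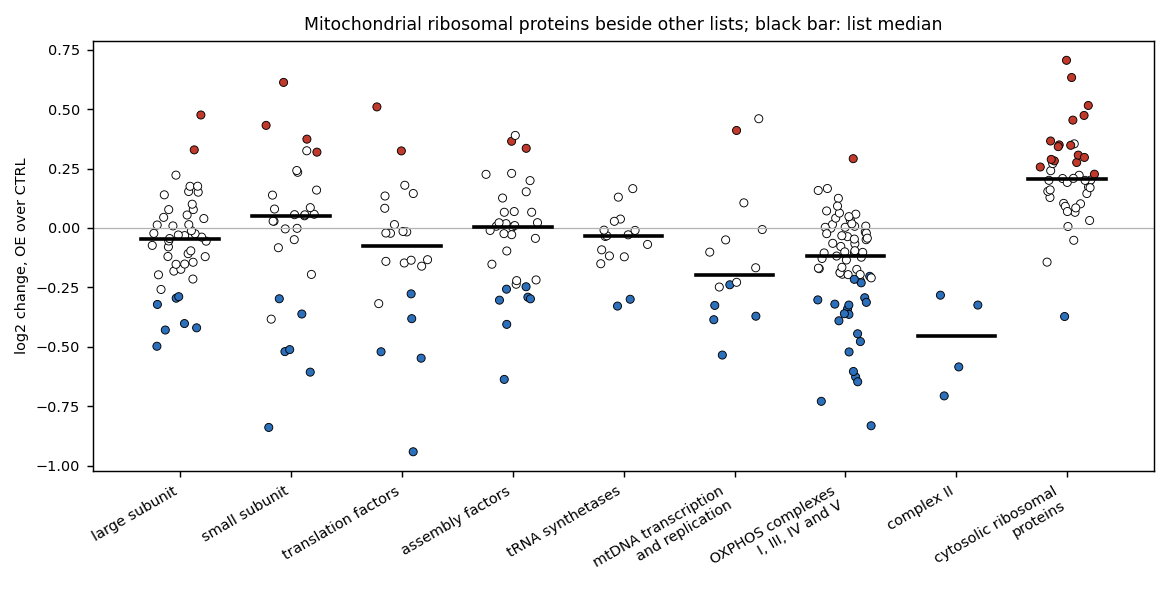
Log2 change, OE over CTRL, of each gene of the large and small mitoribosomal subunits and of 7 other lists, with list medians as black bars. Red circles rose, blue circles fell and white circles did not pass. The medians run from −0.45 for complex II to 0.20 for cytosolic ribosomal proteins, with the large subunit at −0.04 and the small subunit at 0.05.

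Markers of cell types differed between the groups as well. Of 14 cardiomyocyte markers, 8 fell and 2 rose (57.1% and 14.3%, against 11.8% and 14.9% of all genes). The mean of that list was −0.188 to −0.125 in OE arrays, against 0.094 to 0.150 in CTRL arrays. Of 12 macrophage markers 5 rose (41.7%) and none fell (list mean 0.0068 to 0.333 in OE, against −0.344 to −0.099 in CTRL). Of 10 fibroblast markers 6 rose (60.0%) and 1 fell (0.171 to 0.382 in OE, against −0.614 to −0.188 in CTRL). Of 10 endothelial markers 6 fell (60.0%, list mean −0.227 to −0.081 in OE, against 0.159 to 0.361 in CTRL). The mean of the 76 mitochondrial ribosomal protein genes was −0.083 to 0.019 in OE arrays, against −0.030 to 0.067 in CTRL arrays, and so overlapped. In whole ventricles, fewer cells of a type and less RNA per cell cannot be told apart, and the part of these marker shifts in the changes of single ribosomal genes was not tested. Since the values hold no level, it could not be said from them whether any marker was absent.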

How the data were processed

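Per the labels and the array methods, RNA of 6 whole ventricles was hybridised to Affymetrix whole-genome mouse arrays. The authors summarized the arrays by RMA in GeneSpring GX (versions not given in the sources used here), applied quantile normalization and centred each probe set on its median across the samples. The deposited values were taken as log2, although the base is not stated. The deposited values ran from −4.29 to 3.54, and no median of a probe set was further from 0 than 5.0e-07.

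Of 45101 probe sets, 64 array controls, 932 with several symbols and 9160 with no gene were left out. Symbols came from the platform annotation, updated through gene IDs to RefSeq (GRCm38.p6), where 162 gene IDs had no entry and kept the annotated symbol. The remaining 34945 probe sets were averaged to 18193 genes. Groups were taken from the labels and compared in R 4.3.3 with limma 3.58.1 (lmFit, eBayes), with no covariates, at an adjusted p of 0.05. The one-way analysis of variance of the methods became an alternative, since variances of single genes are poorly estimated from 3 arrays a group. An exact permutation test of 3 against 3 cannot give a p below 0.1. The intensity filter of the methods could not be applied to values without a level, and the number of arrays limits the precision. Fits were tested on simulated data. Figures and counts used Python 3.11.15 with pandas 2.3.3, numpy 2.4.6 and matplotlib 3.10.9.

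The members and gene lists were chosen with earlier results of these data known, from symbols and textbook knowledge. Named members are those that passed the test, the homologues of S18, the genes linked to human cardiomyopathy and members nearest the threshold or with divergent probe sets, the last 2 kinds chosen after their values were seen, as were Mrps12, Mrpl45 and the neighbours named; of other lists, up to 4 genes that passed with the largest change and single others for comparison. Alternatives were analysis of variance, the replicate block, other centring, other choices of probe set, other assignments of subunits and symbols, a 1.2-fold limit and leaving out each array.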

Additional observations from a re-analysis of the deposited data

How the results depend on the processing

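None of the 19 members that passed changed direction under the alternatives run, but most alternatives could not reverse one. Analysis of variance, the replicate block, the annotated symbols and the 1.2-fold limit left the log2 changes as they were. Leaving out an array cannot reverse a gene whose groups do not overlap, as in all 19. Only other centring and other choices of probe set could have changed a direction. With centring on cytosolic ribosomal protein genes, 41 members were lower and 2 higher in OE (large subunit 29 and 1, small subunit 12 and 1) and the median of the members was −0.24, beside −0.25 for all genes. Analysis of variance gave 3 members higher, 1 of them in the small subunit, where 7.9% of all genes were higher. The probe set with the largest variance gave 5 large subunit genes higher, where 18.4% of all genes were higher. Leaving out each array in turn gave 9 to 13 members lower and 4 to 6 higher (large subunit 4 to 6 lower and 2 higher, small subunit 5 to 7 lower and 2 to 4 higher), with the lowest counts of 4 and 2 without OE replicate 1. The shares of all genes were then 6.83% to 9.51% lower and 10.1% to 13% higher, below the 11.8% and 14.9% with all arrays. The median of the members was −0.04 to 0.02 without each array, on both sides of 0, and that of large minus small −0.094 to −0.072.

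Mrps18b lost its call under analysis of variance (adjusted p = 0.0862), Mrps6 and Mrpl38 under centring on cytosolic ribosomal protein genes (0.0531 and 0.244), Mrpl42 without OE replicate 1 (0.0521), and Mrps18c under analysis of variance, under that centring and without OE replicate 1 or 3 (0.0563 to 0.129). Mrps23, Mrps31, Mrpl47 and Mrpl2 lost theirs in most fits. The cause was not tested. Replicate numbers did not pair the arrays (correlations of same-numbered deviations 0.07, −0.117 and 0.025). With the replicate block, 11 members were lower and 5 higher (large subunit 5 and 2, small subunit 6 and 3), and 15 of the 19 calls were kept. With that block 9.23% of all genes were lower and 13% higher. The values hold no level, so what signal over background limits could not be examined.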
